A study of Homo sapiens with 6 samples.

Results

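The genes described here are 6 metallothionein genes, MT1E, MT1F, MT1G, MT1M, MT1X and MT2A, together with MTF1 and SLC30A1, which sense and export zinc. They were taken by gene symbol, and all 8 were found among the 46427 genes of the deposited table. RNA came from MDA-MB-231 cells, a human breast cancer line grown in low glucose DMEM with serum, after transfection with control-siRNA (3 cell preparations, the label gives the genotype as WT) or with TAZ-siRNA against WWTR1, the gene for the transcriptional coactivator TAZ (3 cell preparations, labelled as TAZ knockdown). The methods text on sequencing gives neither the dose nor the duration of transfection. Each group rests on a single siRNA reagent in a single cell line, so an effect of losing TAZ and another effect of that reagent cannot be told apart. The comparison asks how transcripts changed when TAZ was depleted. In bulk RNA, fewer cells that make a transcript and less transcript per cell cannot be told apart.

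Metallothioneins are small cysteine-rich proteins that bind zinc and copper and buffer cells against cadmium and other heavy metals. When free zinc rises, the zinc-finger transcription factor MTF1 binds short metal response elements in the promoters of metallothionein genes and of SLC30A1, the zinc exporter of the plasma membrane, and raises their transcription. Metallothionein genes are also induced by glucocorticoids and by oxidative stress, and their levels differ widely between breast cancer lines.

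Depth ranged between 49662504 and 66769103 total counts in the control-siRNA libraries, and between 48307548 and 71749634 in the TAZ-siRNA libraries. WWTR1 mRNA dropped to 16.5 ± 1.21 CPM with TAZ-siRNA against 191 ± 1.45 CPM with control-siRNA (CPM being counts scaled to TMM-normalised library size, SD, n = 3 each), or -3.53 as log2 fold change. TAZ-siRNA replicate 3 had the largest root-mean-square deviation from its group mean, 0.147 on the log2 scale, against 0.0920 to 0.123 in the other 5. The line's vimentin (VIM) and CD44 transcripts were abundant, their sum lying at 4011 to 4255 CPM in control-siRNA libraries and 3818 to 4059 CPM in TAZ-siRNA libraries, and the epithelial keratin genes KRT8, KRT18 and KRT19 were expressed. KRT19 rose from 63.4 ± 1.21 to 81.7 ± 4.65 CPM (SD, n = 3 each, log2 fold change 0.37, edgeR adjusted p = 0.0012), and the other keratins did not pass the threshold. The epithelial cadherin gene CDH1 was nearly silent (0.289 ± 0.253 CPM with control-siRNA, SD, n = 3), as were the hormone receptor genes ESR1 and PGR. The epithelial marker EPCAM was also low, at 1.29 ± 0.270 CPM with control-siRNA and 0.994 ± 0.195 CPM with TAZ-siRNA (SD, n = 3 each, edgeR adjusted p = 0.264). The blood cell marker genes PTPRC and CD3E had no count in any library. The monocyte marker CD14 had 22 to 43 counts in control-siRNA libraries and 42 to 51 in TAZ-siRNA libraries, and its CPM values did not overlap between the groups (log2 fold change 0.55, edgeR adjusted p = 0.140). Of the endothelial markers, PECAM1 had 246 to 416 counts over the 6 libraries and VWF 0 to 21, with overlapping groups. The part of such cells in the results was not tested.

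The 6 metallothionein genes lie within chromosome 16 from 56608584 to 56684196 (GRCh38), among 15 metallothionein genes and pseudogenes of the deposited table that span 56565073 to 56684196. MTF1 (37809570 to 37859614) and SLC30A1 (211571568 to 211579161) are both on chromosome 1. Promoters of MT2A, MT1X and SLC30A1 are shown first because the factor encoded by one member, MTF1, acts through elements in such promoters. RefSeq (GRCh38.p14) gave a promoter for 4 of the 8 members, namely these 3 and MTF1, and for each of the 4 the start site was that of a deposited transcript. Each sequence is the 250 bases before the start, 5′ to 3′ on the strand of the gene. Capitals mark matches to the core of the metal response element, searched as the 7 letters TGCACNC or TGCGCNC on both strands, and no match overlapped another.
MT2A, chr16:56608334-56608583, plus strand: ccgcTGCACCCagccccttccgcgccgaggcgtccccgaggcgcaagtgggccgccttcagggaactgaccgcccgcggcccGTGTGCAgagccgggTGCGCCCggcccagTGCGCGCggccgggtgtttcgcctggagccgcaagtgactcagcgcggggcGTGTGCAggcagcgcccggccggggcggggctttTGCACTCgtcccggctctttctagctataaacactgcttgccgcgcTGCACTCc
MT1X, chr16:56682220-56682469, plus strand: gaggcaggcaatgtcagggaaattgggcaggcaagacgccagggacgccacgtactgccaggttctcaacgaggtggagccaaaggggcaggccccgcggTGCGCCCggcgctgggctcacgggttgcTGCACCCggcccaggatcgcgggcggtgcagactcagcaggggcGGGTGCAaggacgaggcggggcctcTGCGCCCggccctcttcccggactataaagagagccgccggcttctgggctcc
SLC30A1, chr1:211579162-211579411, minus strand: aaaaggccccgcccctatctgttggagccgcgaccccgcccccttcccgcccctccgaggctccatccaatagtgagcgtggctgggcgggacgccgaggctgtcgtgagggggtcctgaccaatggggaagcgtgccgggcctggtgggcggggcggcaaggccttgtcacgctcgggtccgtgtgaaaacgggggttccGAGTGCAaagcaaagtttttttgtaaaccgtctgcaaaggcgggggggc

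The MT2A promoter held 7 matches and the MT1X promoter 4, while that of SLC30A1 held 1 and that of MTF1 held 0. Among 35116 RefSeq promoters of the same length, 24.8% held at least 1 match, 0.370% held at least 4 and 0.0313% held at least 7. These promoters were not matched for GC content, which was 73.2% in the window of MT2A, 70% in those of MT1X and MTF1 and 66.4% in that of SLC30A1. A match describes letters in this window and is not a measured binding site. Promoters of MT1E, MT1F, MT1G and MT1M were not analysed here.

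**Figure D1:**
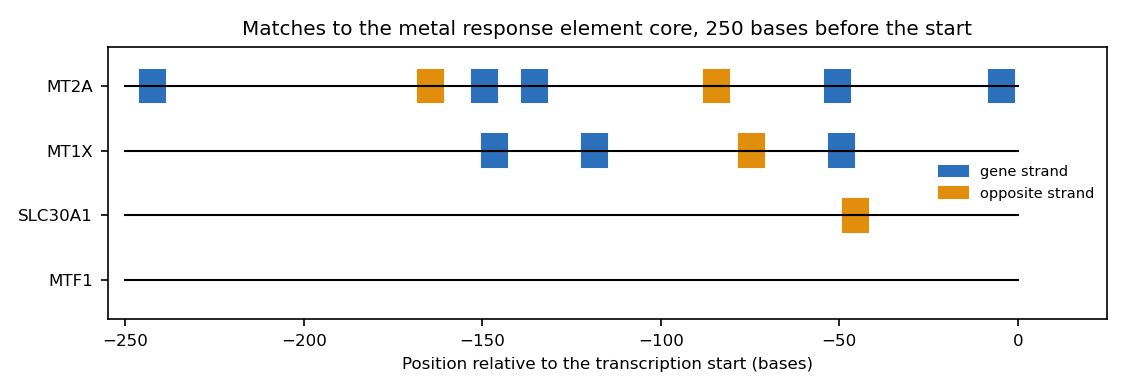
Positions of matches to the metal response element core in the 250 bases before the transcription start, in bases on the horizontal axis, for the 4 members with a RefSeq promoter, coloured by strand relative to the gene. MT2A holds 7 matches spread over the window, MT1X 4, SLC30A1 1 and MTF1 0.

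Expression of the family was dominated by MT2A. On the TPM scale, which divides by transcript length and so allows levels to be compared between genes, MT2A stood at 1489 ± 84.0 with control-siRNA and 1239 ± 27.2 with TAZ-siRNA (SD, n = 3 each), and its mean over all 6 libraries ranked 100 among the 16966 genes tested. MT1E followed at 236 ± 7.03 TPM with control-siRNA and 219 ± 7.84 with TAZ-siRNA (SD, n = 3 each), at rank 633. MT1X came next at 123 ± 15.4 and 107 ± 12.8 TPM (SD, n = 3 each), at rank 1390. The 3 genes are common heavy-metal binding isoforms of the family, and together they made up nearly all of its transcripts in these cells.

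The zinc control genes were expressed at far lower levels per length. SLC30A1 stood at 17.6 ± 0.597 TPM with control-siRNA and 22.3 ± 1.20 with TAZ-siRNA (SD, n = 3 each). MTF1 stood at 13.2 ± 0.856 and 17.3 ± 1.72 TPM (SD, n = 3 each), and MT1F at 1.88 ± 0.741 and 2.56 ± 0.882 TPM (SD, n = 3 each). In both groups the order of TPM levels was MT2A, MT1E, MT1X, SLC30A1, MTF1 and MT1F, and no neighbours in this order overlapped between libraries of the same group.

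MT1G and MT1M had 0 counts in all 6 libraries. A count of 0 allows up to 3 counts, which is 0.0411 to 0.0618 CPM depending on the library and covers counting error only. Neither gene was therefore tested, and no fold change is given for them. Within the rest of the cluster, MT1A was the only other family member that passed the expression filter, with 0.835 ± 0.142 CPM with control-siRNA and 0.574 ± 0.0945 with TAZ-siRNA (SD, n = 3 each, log2 fold change -0.55, edgeR adjusted p = 0.136). Of the 13 further metallothionein genes and pseudogenes looked up, 11 were in the table, 8 of them had no count in any library, and the pseudogenes MT1DP and MT1XP1 had traces that did not pass the filter.

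**Figure D2:**
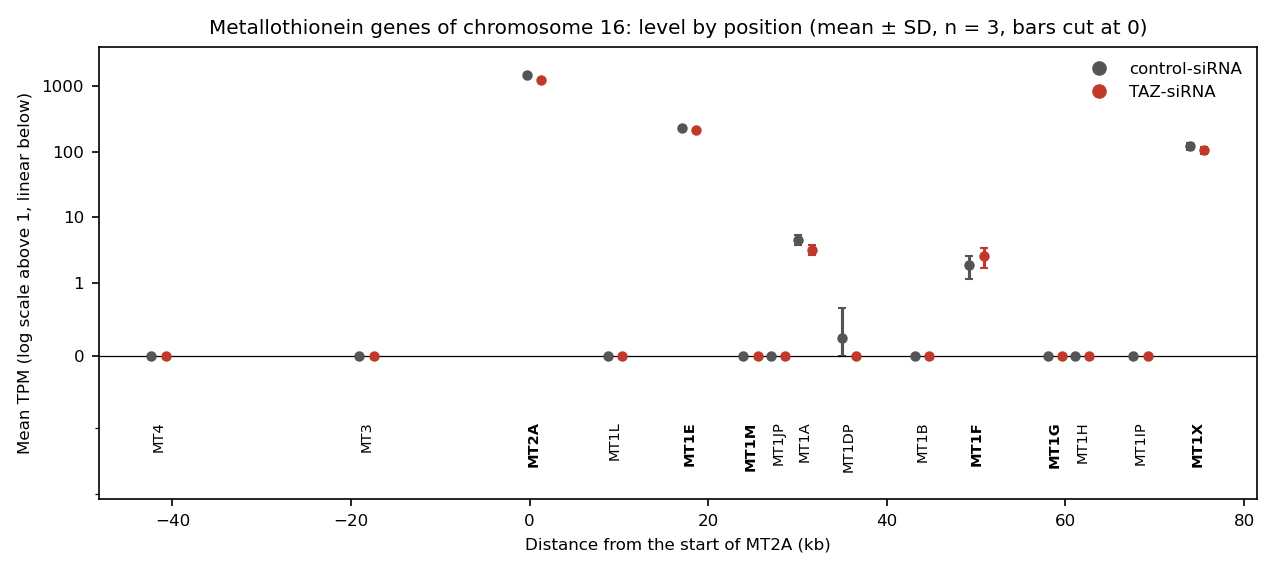
Mean TPM (vertical axis, log scale above 1 and linear below) of the 15 metallothionein genes and pseudogenes of chromosome 16 against distance from the start of MT2A in kb, by group, with SD over 3 libraries cut at 0. Members are in bold. Signal sits in MT2A, MT1E and MT1X, which are separated by genes at or near 0.

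Because these genes are close paralogs, the uniqueness of their sequences was examined in GENCODE v44 transcripts. Of all windows of 100 bases, the read length, none in MT1E, MT1F, MT1G, MT1M or MT2A was identical to a window in a transcript of another gene. In MT1X, 67 of 305 windows (22.0%) were shared, all with a single other gene (ENSG00000259827). For MT1E the windows came from a transcript of 746 bases (647 windows). The deposited MT1E transcript of that length carried 11.2 to 14.2% of the MT1E counts. The 398-base transcript with 85.8 to 88.8% was not examined, so the MT1E shares may not hold for it. Allowing 2 mismatches to another metallothionein gene or pseudogene, 18.5% of windows in MT2A, 13.4% in MT1X, 6.11% in MT1G and 3.86% in MT1E had a near copy, and none did in MT1F or MT1M. Assignment of reads among MT2A, MT1X, MT1G and MT1E is thus less certain than for a gene without paralogs, and the sum over the family is given beside the single genes.

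Summed over the 6 metallothionein genes, counts were 21205, 21420 and 18046 with control-siRNA and 19313, 13486 and 17052 with TAZ-siRNA. Per library this was 318, 344 and 371 CPM with control-siRNA and 265, 273 and 305 CPM with TAZ-siRNA. The summed values of the groups did not overlap, with all TAZ-siRNA libraries on the lower side. The group means were 344 ± 26.8 CPM and 281 ± 21.3 CPM (SD, n = 3 each), so TAZ-siRNA was at 81.6% of control-siRNA, a log2 difference of -0.29, given without a test. Without MT2A, the log2 difference of the sum was -0.19, and with a correction for GC content and transcript length, described further on, that of the whole sum was -0.15.

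MT2A, which encodes the most abundant isoform, carried most of this difference. Its CPM values were 254, 275 and 296 with control-siRNA and 209, 215 and 237 with TAZ-siRNA, so the groups did not overlap. MT2A mRNA (NCBI gene 4502) averaged 275 ± 20.9 CPM with control-siRNA and fell to 220 ± 14.8 CPM with TAZ-siRNA (SD, n = 3 each). Its log2 fold change was -0.32 ± 0.069 (standard error), and the p-value of the quasi-likelihood test in edgeR, adjusted over 16966 genes, was 0.0088. The exact permutation p was 0.1 (2-sided), the smallest that 3 libraries against 3 allow. Without TAZ-siRNA replicate 1 the fall of MT2A was -0.28 on the log2 scale and no longer passed the threshold (adjusted p = 0.052 by edgeR), and with the GC and length correction it was -0.18 (adjusted p = 0.014).

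MT1E, the next in abundance, had 43.5, 45.5 and 48.8 CPM with control-siRNA and 38.0, 40.4 and 44.6 CPM with TAZ-siRNA. The groups of MT1E overlapped, since TAZ-siRNA replicate 3 lay above control-siRNA replicate 1. The log2 fold change was -0.17 (standard error 0.070, unadjusted 95% interval -0.32 to -0.0095, edgeR adjusted p = 0.119). MT1X had 19.6, 23.1 and 26.2 CPM with control-siRNA and 17.2, 17.6 and 23.0 CPM with TAZ-siRNA, again with overlap through TAZ-siRNA replicate 3. For MT1X the log2 fold change was -0.25 (standard error 0.13, 95% interval -0.55 to 0.041, adjusted p = 0.201 by edgeR). Without TAZ-siRNA replicate 3, both were called lower, MT1E at -0.23 (adjusted p = 0.0081 by edgeR) and MT1X at -0.40 (adjusted p = 0.013 by edgeR). Without control-siRNA replicate 3 the values were -0.12 for MT1E (adjusted p = 0.355 by edgeR) and -0.15 for MT1X (adjusted p = 0.508), and without TAZ-siRNA replicate 1 they were -0.11 (adjusted p = 0.371) and -0.17 (adjusted p = 0.486).

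MT1F was close to the limit of detection, with 33, 29 and 10 counts with control-siRNA and 46, 16 and 33 counts with TAZ-siRNA. The ranges overlapped in CPM as well. Its log2 fold change was 0.39 (standard error 0.37, 95% interval -0.43 to 1.22, adjusted p = 0.491 by edgeR), so a change in either direction was not detectable at this depth. Leaving out 1 library moved the value between 0.12 (control-siRNA replicate 3 omitted) and 0.63 (TAZ-siRNA replicate 2 omitted), with 0.60 when control-siRNA replicate 1 was omitted and 0.22 when TAZ-siRNA replicate 1 was.

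The composition of the metallothionein pool shifted slightly. MT2A made up 79.7 to 80.0% of the summed counts in control-siRNA libraries and 77.7 to 78.9% in TAZ-siRNA libraries, while MT1E made up 13.1 to 13.7% and 14.4 to 14.8%. The ratio of MT2A to MT1E counts within a library was 5.84, 6.04 and 6.06 with control-siRNA and 5.49, 5.33 and 5.32 with TAZ-siRNA. These ratios did not overlap between the groups (exact permutation p = 0.1, 2-sided, the smallest possible here). The CPM of 39.6% of single genes separated in this way, and the share for ratios of 2 genes was not computed. The ratio of MT2A to MT1X overlapped, at 12.1 ± 0.857 and 11.6 ± 1.08 (SD, n = 3 each, exact permutation p = 0.7, 2-sided).

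**Figure D3:**
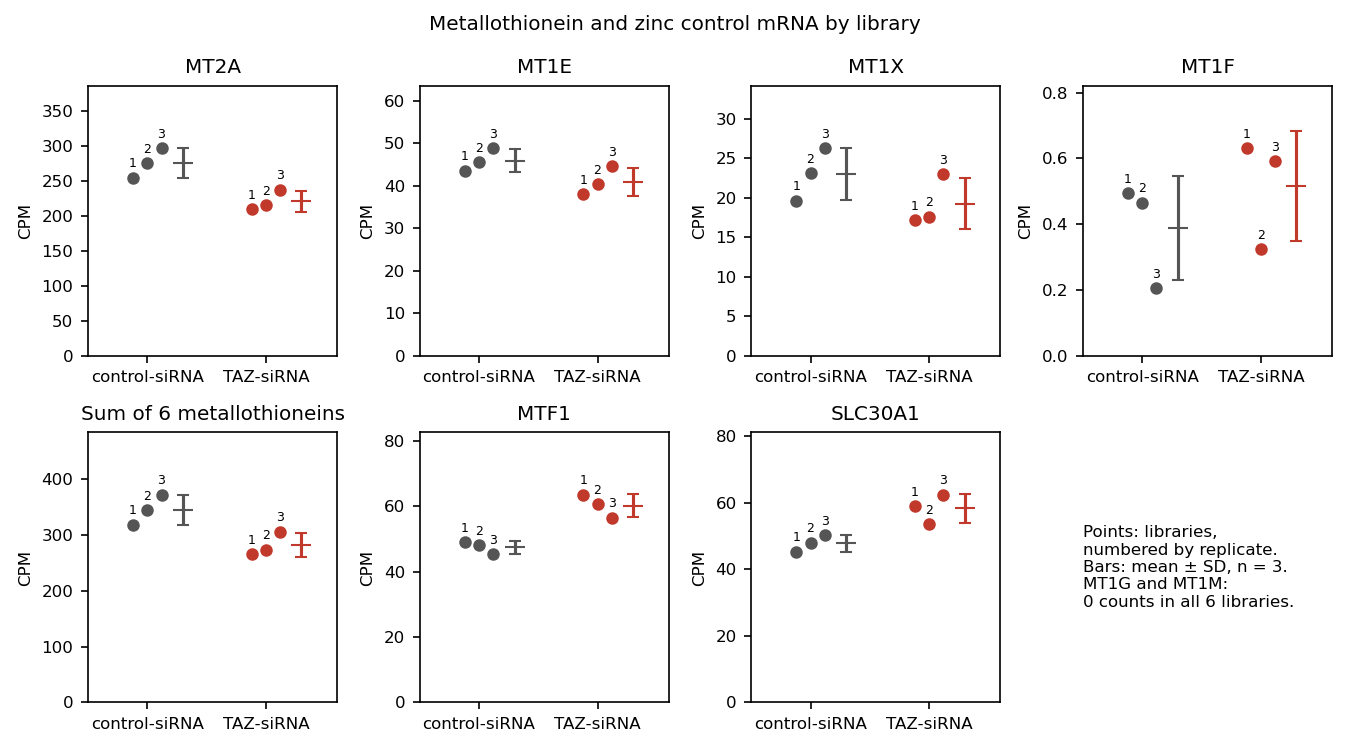
CPM (vertical axes, from 0) of each expressed member and of the metallothionein sum in the 3 control-siRNA and 3 TAZ-siRNA libraries, with mean and SD. TAZ-siRNA libraries lie below all control-siRNA libraries for MT2A and the sum, above them for MTF1 and SLC30A1, and the groups overlap for MT1E, MT1X and MT1F.

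In contrast to MT2A, transcripts of both zinc control genes rose. MTF1, the zinc-sensing transcription factor (NCBI gene 4520), had 49.1, 48.0 and 45.3 CPM with control-siRNA and 63.5, 60.6 and 56.5 CPM with TAZ-siRNA. All TAZ-siRNA libraries were above all control-siRNA libraries. MTF1 thus rose from a mean of 47.5 ± 1.94 to 60.2 ± 3.51 CPM (SD, n = 3 each, log2 fold change 0.34, standard error 0.059, edgeR adjusted p = 0.0029), and the call held without each library in turn. The transcript NM_005955 carried 96.7 to 99.3% of the MTF1 counts in 5 libraries and 76.3% in control-siRNA replicate 3, where the predicted variant XM_011541491 took 22.9%, so the total over transcripts is the steadier measure.

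SLC30A1, which exports zinc across the plasma membrane (NCBI gene 7779), had 45.3, 48.0 and 50.2 CPM with control-siRNA and 59.0, 53.6 and 62.4 CPM with TAZ-siRNA. Again the groups did not overlap. SLC30A1 rose from a mean of 47.8 ± 2.47 to 58.3 ± 4.45 CPM (SD, n = 3 each, log2 fold change 0.29, standard error 0.067, edgeR adjusted p = 0.012). The rise did not pass the threshold without control-siRNA replicate 1 (adjusted p = 0.066 by edgeR) or replicate 2 (adjusted p = 0.056). It passed only narrowly without TAZ-siRNA replicate 1 (adjusted p = 0.04998 by edgeR).

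Of the 8 members, 6 were tested and 3 reached an edgeR adjusted p under 0.05, MTF1 and SLC30A1 higher and MT2A lower. Over all genes tested, 22.1% passed this threshold, 11.9% higher and 10.2% lower with TAZ-siRNA, and groups did not overlap for 39.6% of genes. The median log2 fold change was -0.21 over the 4 metallothionein members tested, 0.31 over the 2 zinc control genes and -0.0054 over all genes tested. Without TAZ-siRNA replicate 3, 5 of the 6 members were called, and 5928 of all 17585 genes tested in that fit. Without control-siRNA replicate 1, control-siRNA replicate 2 or TAZ-siRNA replicate 1, 2 members were called. Over all genes these fits called 2262 of 17213, 1937 of 17258 and 2046 of 17198, so the member counts moved with the number called over all genes.

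Changes differed with transcript length, mainly in TAZ-siRNA replicates 1 and 2. The leading transcripts of the metallothionein members are 398 to 425 bases long, against 7937 for MTF1 and 5893 for SLC30A1. Over the 560 genes tested with a leading transcript under 600 bases the median log2 fold change was -0.15. Of these, 40 (7.14%) were called lower and 4 (0.714%) higher, against 10.2% and 11.9% over all genes tested. Over the 4138 genes above 5000 bases the median was 0.07, with 330 (7.97%) lower and 839 (20.3%) higher. The share called lower was thus below that of all genes in both classes. Relative to the control-siRNA mean, short transcripts had a median of -0.23 and -0.19 on the log2 scale in TAZ-siRNA replicates 1 and 2 and of -0.0078 in replicate 3, against -0.040 to 0.071 in the control-siRNA libraries. Long transcripts had a median of 0.11 and 0.100 in TAZ-siRNA replicates 1 and 2 and of -0.014 in replicate 3, against -0.038 to 0.027 in the control-siRNA libraries, so TAZ-siRNA replicate 3 lay within the control range for both classes. With a correction of each library for GC content and transcript length, the log2 fold change of MT2A was -0.18 (adjusted p = 0.014 by edgeR), that of MTF1 0.25 (adjusted p = 0.0012) and that of SLC30A1 0.23 (adjusted p = 0.048). The 3 calls were kept, although the fall of MT2A was smaller by more than 1.5 times, and MT1E (-0.027, adjusted p = 0.712 by edgeR) and MT1X (-0.12, adjusted p = 0.396) lay closer to 0. The corrected metallothionein sum was 306, 341 and 336 CPM with control-siRNA and 292, 297 and 296 CPM with TAZ-siRNA, a log2 difference of -0.15 with groups that still did not overlap.

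**Figure D4:**
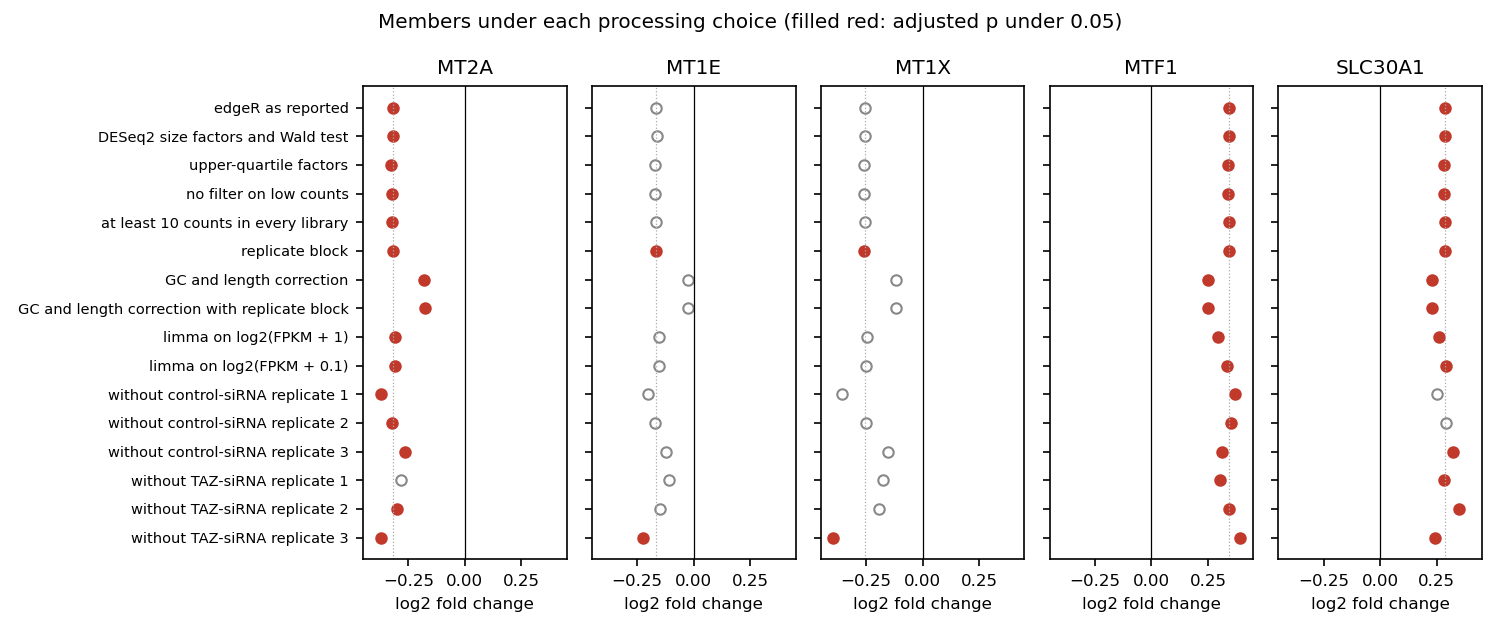
Log2 fold change (horizontal axes) of the 5 members with most counts under each processing choice and with each library left out, with filled red points where the adjusted p was under 0.05. MTF1 is called in every row, MT2A in all but the fit without TAZ-siRNA replicate 1, and MT1E and MT1X only with the replicate block alone or without TAZ-siRNA replicate 3.

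Zinc moves out of the cytosol through SLC30 transporters and into it through SLC39 transporters. Of the 9 other SLC30 genes, 6 were tested, and 1 was called higher and 1 lower by edgeR. For this and the lists that follow, the share called over all genes was 22.1%, and counts of this size say nothing particular about a list. Over the SLC30 genes the median log2 fold change was -0.018. SLC30A7, which loads zinc into the early secretory pathway, fell from 168 ± 4.05 to 125 ± 5.79 CPM (SD, n = 3 each, log2 fold change -0.42, adjusted p = 4.0e-04 by edgeR). SLC30A4, a vesicular zinc transporter, rose from 10.2 ± 0.996 to 13.0 ± 1.01 CPM (SD, n = 3 each, log2 fold change 0.36, adjusted p = 0.021 by edgeR). The call on SLC30A4 was lost without control-siRNA replicate 2 or 3 or TAZ-siRNA replicate 1 or 2 (adjusted p up to 0.096 by edgeR), and with limma on FPKM, where its change was 0.13 with a pseudocount of 1 (adjusted p = 0.328) and 0.19 with 0.1 (adjusted p = 0.336).

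Of the 14 SLC39 genes, 11 were tested, 1 was higher, 2 were lower and 8 did not pass the threshold by edgeR, with a median log2 fold change of -0.034. SLC39A6, a plasma membrane zinc importer, fell from 116 ± 2.27 to 97.2 ± 3.59 CPM (SD, n = 3 each, log2 fold change -0.25, adjusted p = 0.0045 by edgeR). SLC39A14, which imports zinc, iron and manganese, fell from 314 ± 3.37 to 255 ± 31.3 CPM (SD, n = 3 each, log2 fold change -0.30, adjusted p = 0.022 by edgeR), but leaving out any library other than TAZ-siRNA replicate 3 ended the call (adjusted p up to 0.089). SLC39A11 rose from 15.4 ± 0.569 to 19.8 ± 1.75 CPM (SD, n = 3 each, log2 fold change 0.36, adjusted p = 0.0086 by edgeR), and its call was lost without control-siRNA replicate 2 (adjusted p = 0.051). SLC39A10, a zinc importer that MTF1 is known to repress, was 57.6 ± 1.78 and 55.3 ± 5.64 CPM (SD, n = 3 each, log2 fold change -0.058, 95% interval -0.22 to 0.10, adjusted p = 0.610 by edgeR).

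Other genes known to respond to MTF1 moved in both directions. Of 6 such genes, 5 were tested, 1 was higher, 2 were lower and 2 did not pass the threshold, with a median log2 fold change of -0.059, and HAMP had no count. PGF, a growth factor of the VEGF family, rose from 19.0 ± 0.533 to 25.1 ± 0.948 CPM (SD, n = 3 each, log2 fold change 0.41, adjusted p = 0.0014 by edgeR). CSRP1, a LIM-domain protein, fell from 156 ± 8.30 to 127 ± 11.7 CPM (SD, n = 3 each, log2 fold change -0.29, adjusted p = 0.012 by edgeR), a call lost without control-siRNA replicate 2 or 3 or TAZ-siRNA replicate 1 (adjusted p up to 0.066). SELENOH, a selenoprotein, fell from 35.1 ± 2.44 to 29.5 ± 2.67 CPM (SD, n = 3 each, log2 fold change -0.25, adjusted p = 0.042 by edgeR), a call likewise ended by leaving out any library other than TAZ-siRNA replicate 3 (adjusted p up to 0.171), and the GC and length correction reduced the fall to -0.16 (adjusted p = 0.045).

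Metallothioneins also bind copper, and of 8 copper-handling genes all were tested, 2 were higher and 6 did not pass the threshold, with a median log2 fold change of 0.043. The called genes, ATP7A and ATP7B, encode copper-exporting ATPases, and 22.1% of all genes were called. ATP7B rose from 6.04 ± 0.213 to 9.35 ± 1.36 CPM (SD, n = 3 each, log2 fold change 0.63, adjusted p = 0.0036 by edgeR). ATP7A rose from 27.9 ± 0.754 to 34.1 ± 2.27 CPM (SD, n = 3 each, log2 fold change 0.29, adjusted p = 0.0091 by edgeR), and its adjusted p was 0.050 without control-siRNA replicate 3, where the threshold was narrowly missed, and 0.051 when TAZ-siRNA replicate 1 was omitted. With limma on FPKM the ATP7A call was also lost (adjusted p = 0.058 with a pseudocount of 1 and 0.059 with 0.1), and the rise of ATP7B was 0.34 with a pseudocount of 1 (adjusted p = 0.024).

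**Figure D5:**
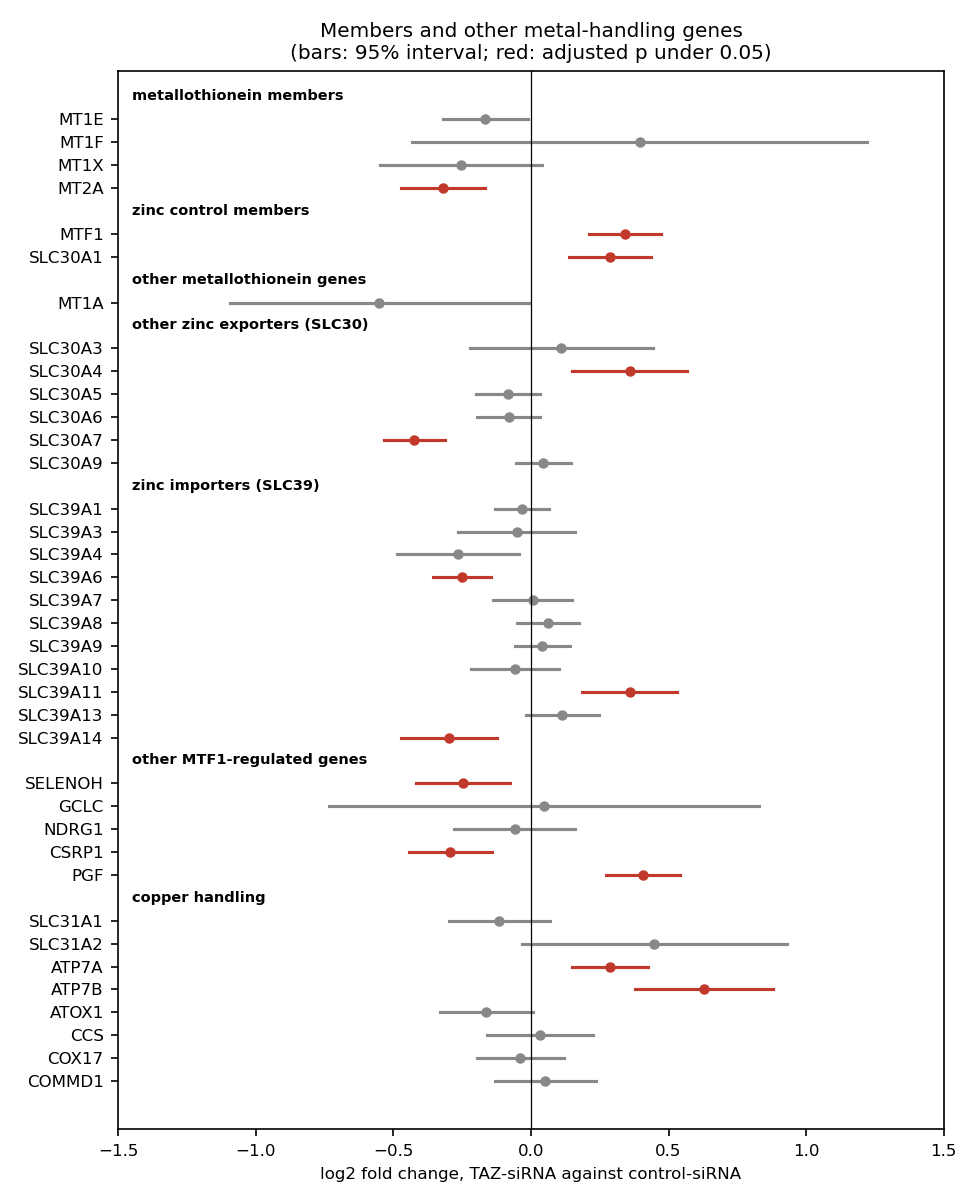
Log2 fold change (horizontal axis) with its 95% interval for each tested member and for the other metallothionein, zinc transporter, MTF1-regulated and copper-handling genes, red where the adjusted p was under 0.05. MT2A lies below 0 and MTF1 and SLC30A1 above it, the zinc transporter and MTF1-regulated lists hold called genes on both sides of 0, copper handling holds them above 0, and MT1A, the other metallothionein, was not called.

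The genes whose pattern over the 6 libraries was most like that of the summed metallothioneins were TMEM14C, ENOPH1, TUT1, RPL3 and MRPL10, with Pearson correlations of log2 CPM of 0.998 to 0.999 among 13577 genes ranked. These values describe 6 libraries of both groups that differ in depth and in the trend with transcript length, and carry no test. RPL3, a cytosolic ribosomal protein gene, went from 1834 ± 132 to 1491 ± 100.1 CPM (SD, n = 3 each, log2 fold change -0.30, adjusted p = 0.017 by edgeR), and TMEM14C from 83.7 ± 4.96 to 70.3 ± 4.34 CPM (SD, n = 3 each, log2 fold change -0.25, adjusted p = 0.015). Both lost the call without control-siRNA replicate 2 or 3 or TAZ-siRNA replicate 1 or 2 (adjusted p up to 0.085 for RPL3 and 0.077 for TMEM14C), and the GC and length correction reduced the value of TMEM14C to -0.15 (adjusted p = 0.022 by edgeR) and that of ENOPH1 from -0.15 to -0.088.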

How the data were processed

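RNA from 3 control-siRNA and 3 TAZ-siRNA preparations of MDA-MB-231 cells was sequenced as stranded mRNA libraries. After read trimming, the authors used HISAT2 for alignment to GRCh38 and StringTie for quantification. The submitters' processing notes also list Bowtie and the mouse build mm8, which the paper's methods do not name. The deposited counts are whole numbers per gene and transcript, the deposited FPKM values were scaled for length and library size, and the deposited TPM values were scaled for length and to a common total. How reads matching several paralogs were divided, and whether strand was used in counting, is not given in the sources used here.

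Libraries were grouped by their labels, and the replicate numbers 1 to 3 of the columns were used. Counts were compared with edgeR 4.0.16 (R 4.3.3) by TMM normalization, filterByExpr at a minimum count of 10, a robust quasi-likelihood test and Benjamini-Hochberg adjustment over all 16966 genes that passed the filter. CPM use the TMM library sizes. Counts of replicates of a group differed by more than sampling noise (chi-square divided by its degrees of freedom, 6.79 to 41). Replicate 3 differed most in both groups. With control-siRNA the value was 6.79 between replicates 1 and 2, and 21.9 and 19.8 between each of these and replicate 3. With TAZ-siRNA it was 11.7, and 30.3 and 41. Alternatives were DESeq2 1.42.0, upper-quartile factors, no filter, at least 10 counts in every library, a replicate block, a spline correction with 5 degrees of freedom for GC content (GENCODE v44) and length of the leading transcript, limma 3.58.1 on FPKM in log2 with a pseudocount of 1 or 0.1, and leaving out each library. GC content and length were available for 89.7% of the genes tested and all 6 members tested, and genes without them were left uncorrected. Each kind of fit was run on simulated counts. These held group changes and, for the corrected fits, a GC trend, but no length trend and no replicate effect. Genes named are the members, WWTR1, list genes with an adjusted p under 0.05 and the 5 genes, among those averaging 1 CPM or more, most correlated with the metallothionein sum. Members and lists were chosen with earlier results of these data known, so no list received a test. SLC39A10, MT1A, MT1DP, MT1XP1, HAMP, HMOX1, NR3C1 and the marker genes were named beyond this rule after their values were seen, and the length limits of 600 and 5000 bases were also chosen then.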

Additional observations from a re-analysis of the deposited data

How the results depend on the processing

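Across the 9 alternatives that used all libraries, MT2A, MTF1 and SLC30A1 kept their direction and their call in each, with log2 fold changes of -0.32 to -0.18, 0.25 to 0.34 and 0.23 to 0.29. With a replicate block, MT1E (-0.17, adjusted p = 0.025 by edgeR) and MT1X (-0.26, adjusted p = 0.013) also passed, so 5 members were called, while with the block and the GC and length correction together 3 were. Same-numbered libraries of the groups correlated in their deviations at 0.034 to 0.206, the highest being those numbered 3, and differently numbered ones at -0.160 to 0.133. The numbers were not taken to pair the libraries, and these values do not settle whether they do. When libraries were left out one at a time, 2 to 5 members were called. Over all genes 1937 were called when control-siRNA replicate 2 was omitted and 5928 when TAZ-siRNA replicate 3 was (against 3749). On the further lists the count was 7 when TAZ-siRNA replicate 1 was omitted and 19 when TAZ-siRNA replicate 3 was (against 14). The block gave 5122 genes called over all genes. The log2 difference of the metallothionein sum was -0.36 to -0.24 with each library left out and -0.15 after the GC and length correction, an alternative added after the data were seen. The lower calls over all genes ran from 1396 to 2652 over the alternatives. The excess of higher over lower calls (2012 against 1737) turned with the GC and length correction (2277 against 2317) and with the block added to it (2512 against 2652). No other result refitted under the alternatives changed direction. Ratios, ranges, KRT19 and genes outside the naming rule were not refitted. Depth limited MT1F, while MT1G and MT1M had no count in any library and were not tested. The 3 libraries a group limit every single-gene permutation test to p = 0.1.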

Other observations

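Metallothionein genes respond to glucocorticoids as well as to zinc. A list of 8 genes held glucocorticoid-induced genes and NR3C1, which encodes the glucocorticoid receptor itself. Of these, 7 were tested, and 2 were called higher and 2 lower by edgeR. The median log2 fold change of 0.089 was the value of NR3C1, which was not called (adjusted p = 0.340 by edgeR), so it does not summarise the induced genes. TSC22D3, which encodes the glucocorticoid-induced leucine zipper, rose from 26.0 ± 0.224 to 31.4 ± 0.313 CPM (SD, n = 3 each, log2 fold change 0.27, adjusted p = 0.0047 by edgeR). FKBP5, a co-chaperone of the glucocorticoid receptor, fell from 40.4 ± 0.876 to 33.4 ± 1.07 CPM (SD, n = 3 each, log2 fold change -0.27, adjusted p = 0.0055 by edgeR). DUSP1, a phosphatase of MAP kinases, fell from 309 ± 23.4 to 199.6 ± 46.2 CPM (SD, n = 3 each, log2 fold change -0.63, adjusted p = 0.030 by edgeR), a call lost without control-siRNA replicate 1 or 3 or TAZ-siRNA replicate 1 (adjusted p up to 0.088) and with no filter on low counts (adjusted p = 0.075). KLF9, a zinc-finger transcription factor, rose from 13.4 ± 0.774 to 16.3 ± 0.832 CPM (SD, n = 3 each, log2 fold change 0.28, edgeR adjusted p = 0.021), a call lost without control-siRNA replicate 1 or 2 or TAZ-siRNA replicate 1 (adjusted p up to 0.092) and after the GC and length correction (adjusted p = 0.055), and with limma on FPKM (adjusted p = 0.065 and 0.069 with pseudocounts of 1 and 0.1).

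None of 6 stress genes that metals induce passed the threshold by edgeR, at adjusted p of 0.119 to 0.789, and their median log2 fold change was 0.27. Their summed level was 4399 to 5160 CPM with control-siRNA and 3691 to 7753 CPM with TAZ-siRNA, the highest value being that of TAZ-siRNA replicate 3. HMOX1, which degrades haem, had 920, 962 and 1112 CPM with control-siRNA and 1043, 713 and 1964 CPM with TAZ-siRNA. In TAZ-siRNA replicate 3, MT2A, MT1E, MT1X, the metallothionein sum and SLC30A1 were also at the highest level of their group. MTF1 was at its lowest there (56.5 CPM), and MT1F was not at its highest. Control-siRNA replicate 3 likewise had the highest stress gene sum, HMOX1, MT2A, MT1E, MT1X, metallothionein sum and SLC30A1 of its group, and the lowest MTF1 and MT1F. Whether these values are related was not tested.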
